A study of Mus musculus with 2 samples.

Results

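The epidermal genes described here were 50 genes of keratin filaments, the cornified envelope, desmosomes, epithelial tight junctions and epidermal regulation. They were listed by name, as genes of these structures or of epidermis, with earlier results of these arrays known, and 48 of the 50 were measured among 18193 named genes. Sprr2a1 was covered only by probe sets that name several genes, and Dsg3 was not analysed here. RNA came from primary mouse embryonic fibroblasts (MEFs), mesenchymal cells grown out of the whole E13.5 embryo of C57BL/6 mice, at passage 2. 1 array held cells that received GapmeR Control, a non-targeting oligonucleotide, and 1 array held cells that received GapmeR AK156230. A GapmeR is a locked nucleic acid antisense oligonucleotide that directs RNase H to a transcript, here the long non-coding RNA AK156230. The control cells were thus also transfected, and a single GapmeR was used against AK156230.

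The number of probe sets annotated to AK156230 was 0, so the knockdown could not be read on these arrays. Each condition had 1 array, so no value below has a replicate check, no p-value can be given, and genes are called higher or lower where the signal with GapmeR AK156230 was at least 2-fold above or below that with GapmeR Control. The deposited values were MAS5 signals, a linear intensity per probe set, with array medians of 54.80 and 50.95. A gene was called dim where its signal was below the array median on both arrays. The log2 signals of all probe sets correlated between the arrays with a Pearson r of 0.970. Where a gene had 2 probe sets above the median, the SD of a probe set's log2 ratio within a gene was 0.276 (5112 genes), which measures the spread between probes and not between cultures. All 15 fibroblast markers were above the array median on at least 1 array, with Vim, the intermediate filament protein of mesenchymal cells, at signals of 6598.43 and 6211.66.

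In stratified epithelium, type I and type II keratins pair into filaments that are anchored at desmosomes, where desmoplakin ties them to the plakoglobin, plakophilin and cadherin plaque. As keratinocytes move outward they build the cornified envelope, a protein shell of loricrin, involucrin, small proline-rich and late cornified envelope proteins that transglutaminases cross-link under the plasma membrane. Many of these envelope genes lie side by side in the epidermal differentiation complex. Tight junction claudins complete the barrier, while p63, GRHL3 and OVOL1 are transcription factors of the epidermal programme. Fibroblasts do not cornify, and keratins are not their main filament system.

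With GapmeR AK156230, 11 of the 48 measured epidermal genes were higher by at least 2-fold and 1 was lower, while 36 lay within 2-fold. The higher genes were Lce1h, Dynap, Dsp, Crct1, Klk8, Lce1f, Cldn4, Krt18, Grhl3, Lce1i and Krt19, and the lower one was Cldn1. Among all named genes 1.59% were higher and 3.85% were lower. The share of the 48 that was higher came to 22.9%, and since the set was put together with such results known, its excess over the background is a description and no independent evidence. All 12 genes past 2-fold were above the array median on at least 1 array, as were 31 of the 48. Among the 12319 genes of that brightness 1.90% were higher and 4.92% were lower. The median log2 ratio of the 48 genes was 0.15, against -0.07 over all named genes. In a bulk culture, more cells of a type and more RNA per cell cannot be told apart. The plot of both signals for every gene shows where the few separated pairs lie among many pairs that nearly coincide.

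**Figure D1:**
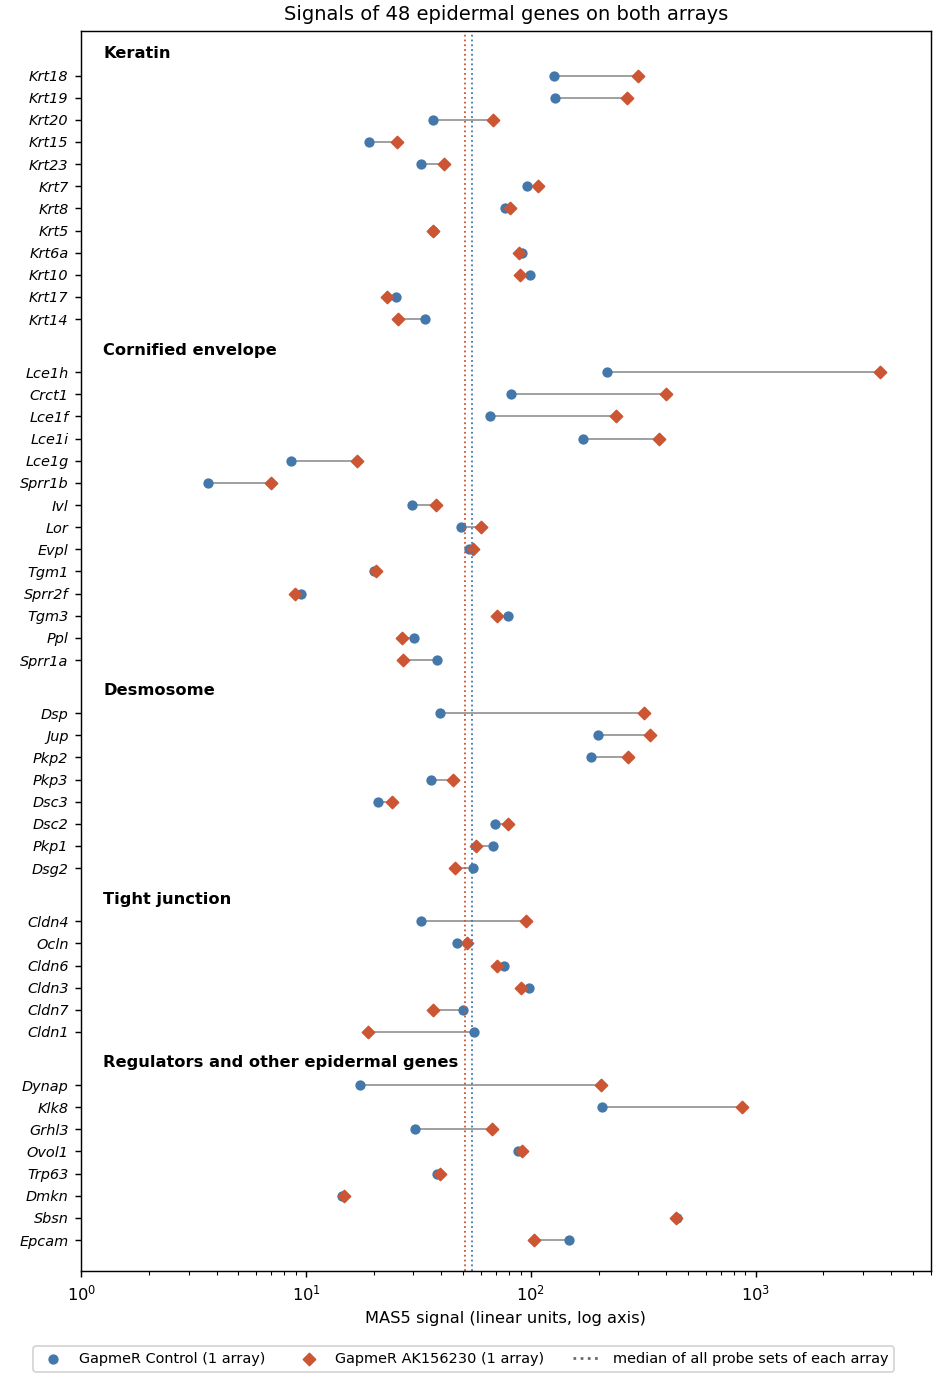
MAS5 signal (log axis) of each of the 48 measured epidermal genes with GapmeR Control and with GapmeR AK156230, 1 array each, grouped by role; a line joins the 2 signals of a gene. Lce1h went from 217.11 to 3589.04 and Dynap from 17.36 to 205.71. Cldn1 was the only gene lower by at least 2-fold, 55.96 against 18.78 on its brightest probe set, and its other probe sets varied.

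The late cornified envelope (LCE1) genes and Crct1 held the highest ratios of the cornified envelope group. The LCE1 genes encode small cysteine-rich proteins laid down late in the envelope. Lce1h had a control signal of 217.11, and after GapmeR AK156230 it read 3589.04, a 16.5-fold difference (log2 ratio 4.05). This was the fourth highest log2 ratio among the genes above the array median. Crct1, cysteine-rich C-terminal 1, went from 81.24 to 399.89, which is 4.92-fold. Lce1f had signals of 65.8 and 239.22 (3.64-fold). Lce1i had signals of 170.92 and 373.28 (2.18-fold). All 4 had signals above the array median on both arrays.

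Lce1g, which lies between Lce1f and Lce1h, was dim at 8.56 and 16.93, and the log2 ratio of 0.98 shrank to 0.33 once an offset of 24.3 was added to every signal. Its signals were too low to place it with or apart from its neighbours. The LCE1 genes are close copies of each other, and the only probe sets for Lce1h and Lce1i carry the suffix that marks possible cross-hybridization, so part of either signal may belong to another LCE1 transcript. Lce1f had a second, dim probe set at 20.67 and 27.18 (log2 ratio 0.40), against 1.86 for its brighter one.

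The classical envelope proteins did not share the large ratios. Lor, loricrin, the main protein of the mature envelope, had signals of 49.04 and 60.22 (log2 ratio 0.30). Evpl, envoplakin, which with periplakin forms the first scaffold of the envelope, had signals of 53.21 and 55.36 (0.06). Tgm3, a transglutaminase that cross-links envelope proteins, had signals of 79.24 and 70.55 (-0.17). The Evpl and Tgm3 ratios were smaller than the SD between probe sets of a gene, and that of Lor was slightly above it. The other Lor probe sets, both dim, gave -0.46 and 0.04, and the mean over the 3 was -0.04, so Lor had no settled direction. Ivl, Sprr1a, Sprr1b, Sprr2f, Tgm1 and Ppl were dim on both arrays, with signals from 3.67 to 38.08 under GapmeR Control. Of the dim ones, Sprr1b had the highest log2 ratio, 0.92 on signals of 3.67 and 6.96, and Sprr1a the lowest, -0.50 on 38.08 and 26.96. In all, 4 of 14 measured envelope genes were higher and 0 were lower, against 1.59% and 3.85% of all named genes. The group median was 0.33. That median came to 0.15 where each gene was the mean of its probe sets, 0.18 with the offset and 0.18 without the probe sets prone to cross-hybridization.

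The LCE1 genes stand in a row on chromosome 3 in the epidermal differentiation complex, and the sequences upstream of 3 of them are shown because these neighbours had such different signals. The RefSeq promoter table (GRCm38.p6, minus strand) gave the 250 bases before the gene start at chr3:92752339-92752588 for Lce1g, chr3:92765066-92765315 for Lce1h and chr3:92778900-92779149 for Lce1i. Capitals mark a run of 15 bases that the 3 sequences hold at the same place, starting 34 bases before the gene start. The fourth sequence, Sprr1a at chr3:92485882-92486131, is an envelope gene of the same complex that was not higher, and its capitals mark the AP-1 letters TGANTCA and the TATA letters TATAAA.
Lce1g: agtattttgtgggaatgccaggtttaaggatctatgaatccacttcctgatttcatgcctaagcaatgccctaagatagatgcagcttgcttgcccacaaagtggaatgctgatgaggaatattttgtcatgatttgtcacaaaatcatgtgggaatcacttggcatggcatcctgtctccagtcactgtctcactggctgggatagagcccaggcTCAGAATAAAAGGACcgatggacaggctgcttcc
Lce1h: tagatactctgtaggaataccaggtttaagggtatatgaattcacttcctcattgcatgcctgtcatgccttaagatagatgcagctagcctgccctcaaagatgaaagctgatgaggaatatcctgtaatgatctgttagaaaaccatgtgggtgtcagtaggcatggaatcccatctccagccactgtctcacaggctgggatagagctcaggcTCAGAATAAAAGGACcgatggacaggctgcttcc
Lce1i: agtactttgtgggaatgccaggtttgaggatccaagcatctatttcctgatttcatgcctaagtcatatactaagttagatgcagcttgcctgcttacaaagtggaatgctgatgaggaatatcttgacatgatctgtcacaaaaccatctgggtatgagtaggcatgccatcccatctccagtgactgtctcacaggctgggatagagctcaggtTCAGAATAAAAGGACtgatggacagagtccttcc
Sprr1a: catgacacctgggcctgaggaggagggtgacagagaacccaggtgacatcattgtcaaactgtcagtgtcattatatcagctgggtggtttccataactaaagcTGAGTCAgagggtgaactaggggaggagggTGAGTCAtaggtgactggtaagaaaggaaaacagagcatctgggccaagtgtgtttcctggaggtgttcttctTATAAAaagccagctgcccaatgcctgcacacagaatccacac

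In a global alignment that allows gaps, identical bases made up 85.2% of the 250 upstream bases between Lce1g and Lce1h, 85.6% between Lce1g and Lce1i, and 82.0% between Lce1h and Lce1i. The capital run TCAGAATAAAAGGAC was found on either strand in 6 of 32851 upstream sequences of the table, those of Lce1c, Lce1e, Lce1g, Lce1h, Lce1i and Lce1j. The run was thus shared by Lce1h at 16.5-fold, by Lce1i at 2.18-fold and by the dim Lce1g. Of the 48 measured genes, 31 had an entry in the table, 7 of them among the higher genes.

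The AP-1 letters TGANTCA, which read the same on both strands, were found upstream of 8 of the 31 genes and in 6.75% of all sequences. Among the 7 higher genes, 1 (Cldn4) held them. The TATA letters TATAAA, searched on both strands, were upstream of 8 of the 31, 0 of the 7, and in 12.4% of all. The Grainyhead letters AACNNGTT, also their own reverse complement, were upstream of 0 of the 31 and in 3.64% of all. Each motif was searched on its own, and overlaps between motifs were not looked for. Lor, Ivl, Sprr1a, Sprr1b and Sprr2f each held both the AP-1 and the TATA letters, and none of these 5 genes was higher. Lce1g, Lce1h and Lce1i held neither. Upstream here means before a listed start site, which for some genes, such as Krt14 and Sbsn, lay inside the annotated gene. Such matches are letters in a window and say nothing of binding.

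**Figure D2:**
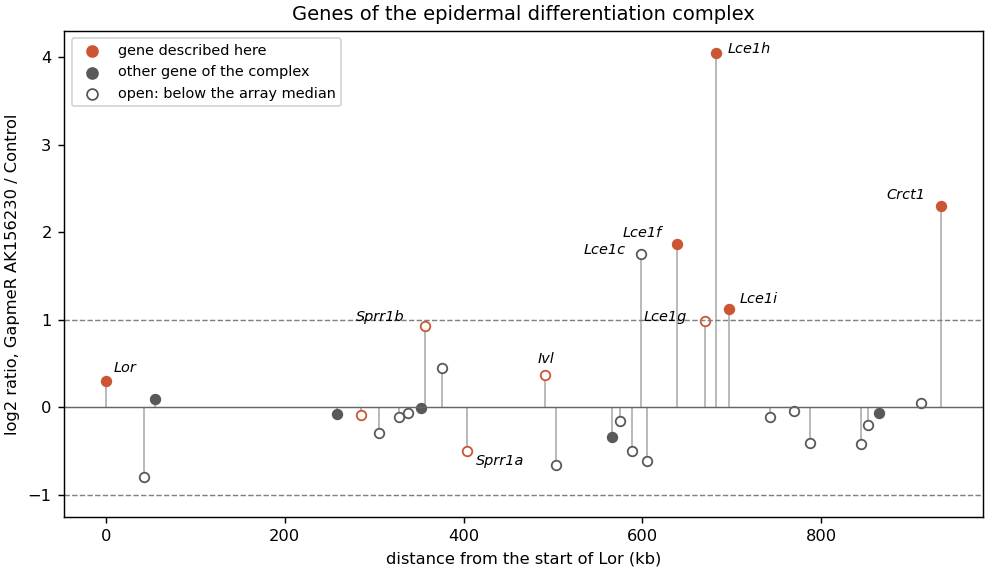
Log2 ratio (GapmeR AK156230 relative to GapmeR Control) for the 31 named genes of the epidermal differentiation complex, by distance (kb) from its first gene; filled points are above the array median on at least 1 array, open points are dim, and colour separates the described envelope genes from their neighbours. Lce1f, Lce1h and Lce1i stand within 60.2 kb above the 2-fold line with the dim Lce1g among them and the dim Lce1c nearby, and Crct1 lies apart at the far end.

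The complex, taken from Lor to Crct1, covered 935.4 kb of chromosome 3 (chr3:92080271-93015686), and 31 of its 55 annotated genes were named on the array. Of those 31, 5 were higher (16.1%) and 0 were lower, against 1.59% and 3.85% of all named genes, with a median log2 ratio of -0.07. Lce1f, Lce1h, Lce1i and Crct1, among these 5, belong to the set chosen with earlier results known, so the count is a description. Lce1f, Lce1h and Lce1i lay within 60.2 kb (chr3:92718696-92778899), and Crct1 lay at the end of the complex. The 21 measured genes of the complex outside the chosen set had a median of -0.12, and 1 of them was higher, the dim Lce1c with signals of 2.83 and 9.5. Lelp1, Sprr2d, Sprr2k, Lce1a1 and Lce3c, the 5 of them above the array median, ranged from -0.34 to 0.09. Lce1a1, a further LCE1 copy, had signals of 288.27 and 226.99, so bright LCE1 probe sets did not all go one way.

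Among the desmosome genes, Dsp was higher and the other measured plaque and cadherin genes lay within 2-fold. Dsp encodes desmoplakin, which links the desmosome to keratin filaments, and its signal went from 39.3 to 319.21, an 8.12-fold difference (log2 ratio 3.02). A second Dsp probe set gave 35.83 and 268.9 (2.91), while the last stayed dim at 14.45 and 16.55 (0.20). The control signals of the first pair of probe sets were below the control median, so the size of the ratio rests partly on a low denominator, and with the offset the log2 ratio was 2.43.

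Jup, plakoglobin, an arm-repeat protein of both desmosomes and adherens junctions, had signals of 198.66 and 340.16 (1.71-fold). Pkp2, plakophilin 2, had signals of 184.83 and 269.63 (log2 ratio 0.54). Of its further probe sets 1 gave 0.80, on signals of 107.2 and 187.23, and the others, both dim, gave -0.04 and -0.07. Jup and the brighter Pkp2 probe sets thus leaned the way of Dsp without passing 2-fold. Dsc2, a desmocollin, had signals of 69.45 and 79.29 (0.19). Pkp1, plakophilin 1, had signals of 67.99 and 57.22 (-0.25), and Dsg2, a desmoglein, had 55.06 and 45.8 (-0.27). The further probe sets of Dsc2 and Dsg2 were dim, at -0.32 for Dsc2 and from -0.35 to 1.16 for Dsg2, so neither had a settled direction. Pkp3 and Dsc3 were dim, at log2 ratios of 0.32 and 0.20. The median of the 8 measured desmosome genes was 0.26.

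Of the 12 keratins, Krt18 and Krt19 were higher. Krt18, the type I keratin of simple epithelium, had signals of 126.94 and 298.63 (2.35-fold). Krt19, a type I keratin of simple and glandular epithelium, had signals of 128.55 and 268.77 (2.09-fold). Both were above the median on both arrays, though with the offset Krt19 came to a log2 ratio of 0.94, under the 2-fold line. Krt20, a type I keratin of intestinal and urothelial surface cells, came next with signals of 36.81 and 67.55 (0.88).

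The type II partners of these keratins did not show ratios of that size. Krt8, with which Krt18 polymerizes, had signals of 77.11 and 81.09 (0.07), and its other probe sets gave -0.24 and -0.03. Krt7, a further type II keratin of simple epithelium, had signals of 96.05 and 107.68 (0.16). So the ratios of Krt18 and Krt8 differed by more than the spread between probe sets of a gene, with no replicate to set it against. Krt10, the type I keratin of suprabasal keratinocytes, had signals of 98.91 and 89.85 (-0.14). Krt6a, a type II keratin of hair follicles and healing epidermis, had 91.24 and 88.63 (-0.04). Krt5, Krt14, Krt15, Krt17 and Krt23 were dim, with signals from 19.1 to 40.94 over both arrays and log2 ratios from -0.39 to 0.40. Krt5 and Krt14, the pair that defines basal keratinocytes, were thus below the median on both arrays. The keratin median was 0.12.

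The claudins went both ways. Cldn4, a claudin that lowers paracellular ion flow, had signals of 32.57 and 94.88 (2.91-fold higher), with the control signal below the control median. Cldn1, whose protein is needed for the epidermal water barrier, had signals of 55.96 and 18.78, which is 2.98-fold lower (log2 ratio -1.58). It was the only one of the 48 genes that was lower by at least 2-fold. Its 3 dimmer probe sets gave -1.32, -0.31 and 0.01, with the offset the brightest one came to -0.90, and as the mean over its probe sets the gene came to -0.80, so the lower call depended on the probe set and on the offset. Cldn3 had signals of 98.53 and 90.04, Cldn6 75.81 and 70.61, and Ocln, occludin, 47.13 and 52.1. These 3 genes lay within 2-fold, a dim Ocln probe set gave 0.73, and Cldn7 was dim (-0.43). The tight junction median was -0.12, and 0.01 where each gene was the mean of its probe sets.

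**Figure D3:**
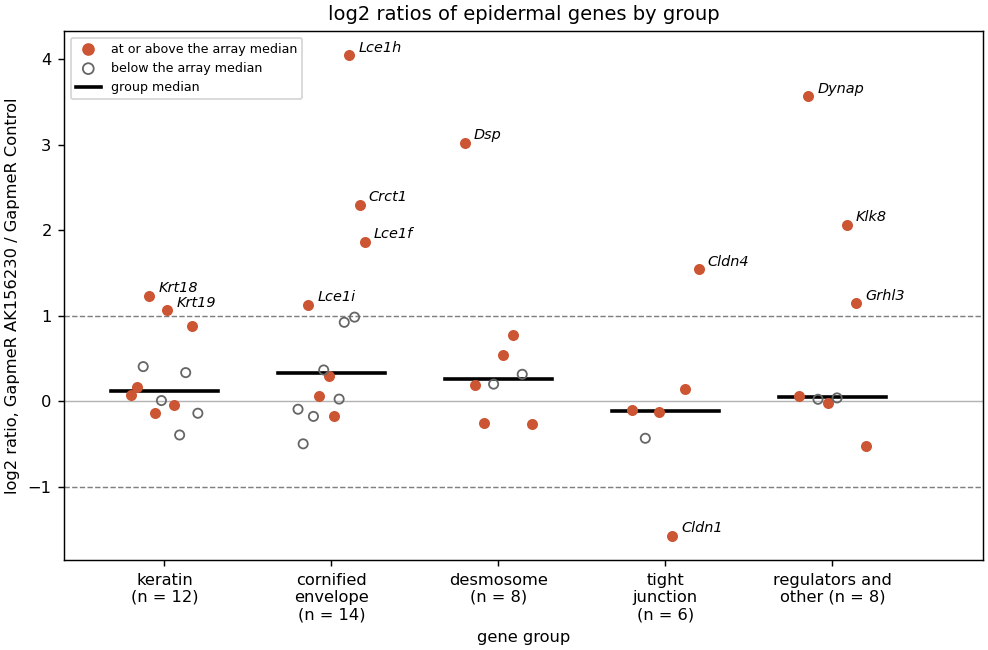
Log2 ratio (GapmeR AK156230 relative to GapmeR Control) for each measured gene by group, with the group median as a bar; filled points are above the array median on at least 1 array, open points are dim, and dashed lines mark 2-fold. Each group except the tight junction genes has its median between 0 and 0.33 with a few genes far above it, and Cldn1 stands alone below -1.

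Among the regulators and other epidermal genes, Dynap, Klk8 and Grhl3 were higher and 0 of the 8 were lower. Dynap, which encodes dynactin associated protein, a small membrane protein, had signals of 17.36 and 205.71 (11.8-fold, log2 ratio 3.57). Its control signal was far below the control median, and the offset brought the log2 ratio to 2.46. Klk8, a kallikrein serine protease (neuropsin) that takes part in shedding of the outer epidermis, had signals of 208.13 and 868.79 (4.17-fold) and was above the median on both arrays. Grhl3, a Grainyhead-like transcription factor needed for the epidermal barrier, had signals of 30.44 and 67.3 (2.21-fold). With the offset Grhl3 came to 0.74, under the 2-fold line.

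The other genes of this group lay within 2-fold. Trp63, the p63 gene that sets up stratified epithelium, was dim at 38.34 and 39.39 (log2 ratio 0.04). Ovol1, a zinc finger factor of late epidermal differentiation, had signals of 87.67 and 91.71 (0.06). Sbsn, suprabasin, a secreted protein of suprabasal layers, had 447.36 and 441.6 (-0.02). Its further probe sets gave 0.25 and, for the dim one, -0.67. Dmkn, dermokine, was dim. Epcam, an epithelial adhesion molecule, had signals of 147.65 and 103.1 (-0.52), while its dimmer probe set gave 0.25. The group median was 0.05 (-0.03 where each gene was the mean of its probe sets), with Dynap, Klk8 and Grhl3 far above it.

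**Figure D4:**
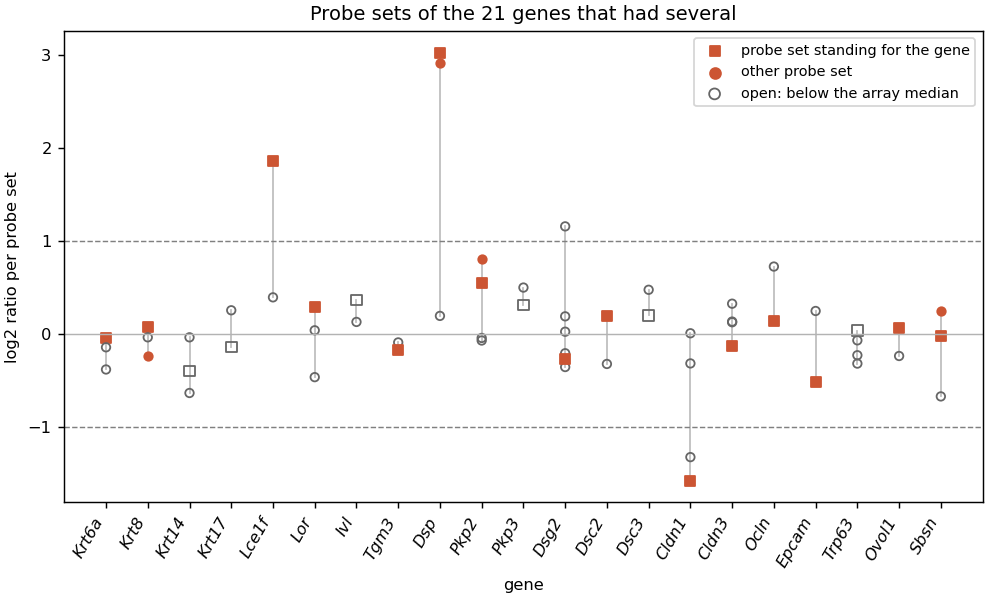
Log2 ratio (GapmeR AK156230 relative to GapmeR Control) for every probe set of the genes that have more than 1, with squares for the probe set that stands for the gene, circles for the others, and open symbols where both signals were below the array median. The 3 Dsp probe sets read 3.02, 2.91 and 0.20 and the 4 Cldn1 probe sets run from -1.58 to 0.01, and the other Lce1f probe set reads 0.40 against 1.86.

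The 48 genes had 87 probe sets in all, 21 genes had more than 1, and in 10 of these all probe sets lay within 0.5 of each other on the log2 scale. Of the genes past 2-fold, Dsp, Lce1f and Cldn1 had more than 1 probe set, and the others rested on 1. Dsp, Dynap, Cldn4 and Grhl3 had control signals below the control median, and the other 7 higher genes were above the median on both arrays.

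The set was made up of short genes. Their median length was 8.70 kb, against 20.2 kb over all named genes, and 35, 12 and 1 of the measured ones lay in the classes under 20 kb, from 20 to 160 kb and over 160 kb. Among genes above the array median, 2.28% of those under 20 kb, 4.76% of those from 20 to 160 kb and 25.4% of those over 160 kb were lower with GapmeR AK156230. Higher genes made up 2.4%, 1.56% and 0.77% of the same classes. By class 9, 2 and 0 of the epidermal genes were higher. The part of gene length in the count of epidermal genes was not tested.

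Of 185 further genes of the same structures 163 were measured, and 152 of these lay within 2-fold. The 8 that were higher made up 4.91%, against 1.59% of all named genes, and the 3 that were lower made up 1.84%, against 3.85%. Of the 8 higher ones 5 were dim. Among the 69 above the array median, 3 were higher (4.35%) and 2 were lower. Over all genes of that brightness 1.90% were higher and 4.92% were lower. These lists were also chosen with earlier results known, so the shares are a description. The median log2 ratio of the 163 was -0.05. Among the 12 further desmosome and adherens junction genes, 1 was higher, Perp, a tetraspan protein of desmosomes, with signals of 270.64 and 1066.78 (3.94-fold). Among the 22 further epidermal transcription factors, 1 was higher, Gata3, a factor of hair follicle and barrier differentiation, with signals of 67.3 and 325.1 (4.83-fold). Among the 30 proteases, inhibitors and secreted proteins, St14, matriptase, a membrane protease of the barrier, had signals of 27.18 and 93.44 (3.44-fold higher). Il18, an interleukin made by keratinocytes, had 112.85 and 21.37 (5.28-fold lower). Perp, Gata3 and St14 were each the only higher gene of their list, and the list medians were 0.07, 0.03 and -0.03. The dim Grhl1 and the brighter Grhl2, of the same family as Grhl3, had log2 ratios of 0.15 and -0.03. The further measured kallikreins ran from -0.50 (Klk5) to 0.11 (Klk9), and Klk4, Klk7, Klk10 and Klk11 among them were dim. The large ratio of Klk8 was thus not shared by the kallikreins above the array median.

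Of the 30 further keratins 8 were above the array median and 0 of these were past 2-fold, and of the 34 further envelope genes 11 were above it and 0 of these were past 2-fold. The dim Krt25, Lce1c and Tchh were higher and the dim Hrnr was lower, at signals from 2.83 to 35.64. Among the 25 further tight junction genes, 1 was lower, Tjp1, the scaffold protein ZO-1, with signals of 791.89 and 310.65 (2.55-fold). Tjp1 is a gene of 232 kb, in the length class where lower genes were most frequent. Among the 10 hemidesmosome and anchor genes, the dim Itgb4 and Lama3 were higher (20%, against 1.59% of all named genes), and the median was 0.22. With the offset both came under 2-fold, at log2 ratios of 0.73 and 0.54.

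**Figure D5:**
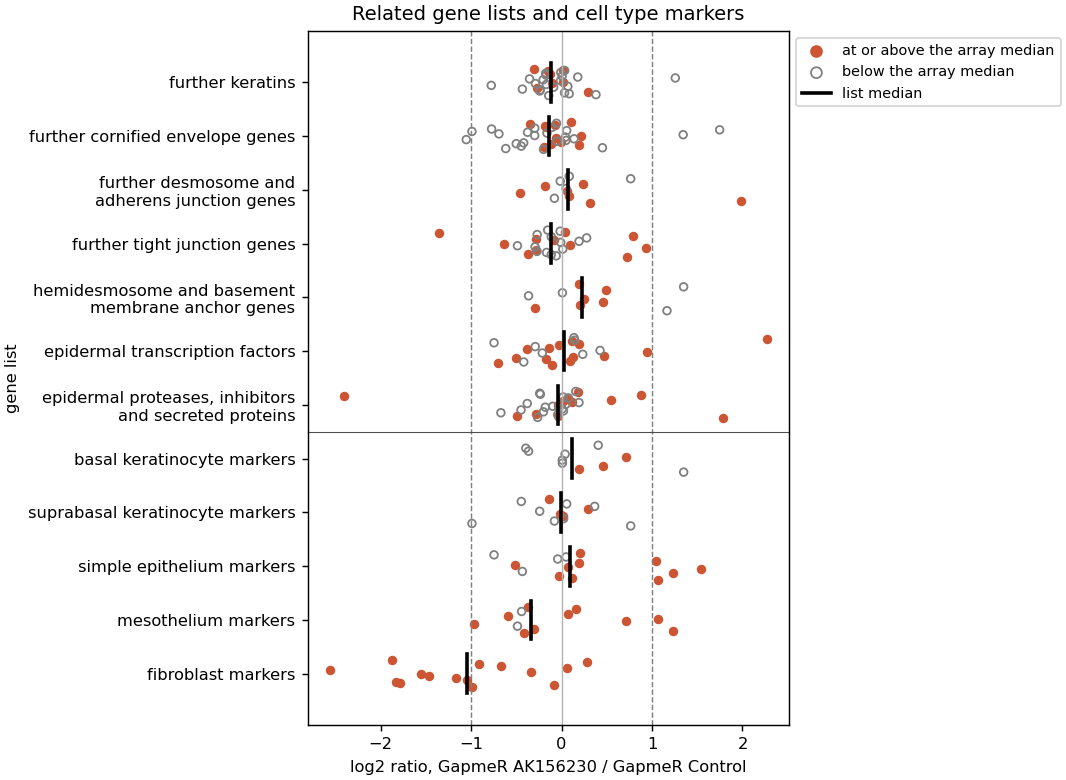
Log2 ratio (GapmeR AK156230 relative to GapmeR Control) for the genes of the related lists and the cell type markers, 1 line a list, with the list median as a bar; filled points are above the array median on at least 1 array, open points are dim, and dashed lines mark 2-fold. Most lists centre near 0, with Perp, Gata3 and St14 as single genes above the 2-fold line, while the fibroblast markers centre at -1.05.

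Markers of the cell types that such a culture could hold were read beside the epidermal genes. These markers were chosen with earlier results of these arrays known, so their counts are a description. Of 10 basal keratinocyte markers 1, the dim Itgb4, was higher, against 1.59% of all named genes. The signals of these 10 summed to 1183.08 on the control array and 1469.21 on the other. Of 12 suprabasal markers 0 were higher and 0 were lower, with sums of 834.59 and 816.73, of which Sbsn alone gave 447.36 and 441.6. Of the basal markers 7 were dim, and the 3 others, Itga6, Dst and Bnc1, had log2 ratios of 0.46, 0.19 and 0.72. In the basal sums Itga6 alone gave 368.34 and 507.37, and Dst 556.62 and 635.87. Of the suprabasal markers 8 were dim. The defining genes Krt5, Krt14 and Trp63 were dim on both arrays. No detection calls were used, so a dim signal does not show whether a gene was expressed. Of 14 simple epithelium markers 4 were higher, against 1.59% of all named genes, and their median log2 ratio was 0.09. The 4 were Krt18, Krt19, Cldn4 and Prom2, a membrane protein of epithelial protrusions (31.71 and 65.42). The signals of all 14 summed to 1086.39 and 1452.22. Krt18, Krt19 and Cldn4 also belong to the 50 genes, and without them the sum did not rise. With the offset Krt19 (0.94) and Prom2 (0.68) came under 2-fold. Krt8, Epcam and Cdh1, E-cadherin, which define that cell type, lay within 2-fold, and Cdh1 was dim at 35.97 and 37.23.

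Of 12 mesothelium markers 2 were higher, the same Krt18 and Krt19, and 0 were lower, against 1.59% and 3.85% of all named genes. The signals of all 12 summed to 1177.63 and 1325.87. Without Krt18 and Krt19 the sum was lower with GapmeR AK156230. Msln, mesothelin, had 149.2 and 76.06 (log2 ratio -0.97) and Upk1b 251.76 and 167.62. The mesothelium median was -0.34. Of 15 fibroblast markers 8 were lower and 0 were higher, against 4.92% and 1.90% of the genes above the array median. Their median was -1.05, and their summed signal went from 42128.06 to 25888.14. The log2 ratios of the 15 ran from -2.56 (Prrx1) to 0.29 (Twist1). The other 7 lay within 2-fold, among them Col1a2 with signals of 7019.42 and 4398.56 and Fn1 with 6210.36 and 4919.82. The higher epidermal genes thus stood beside lower fibroblast markers, and the part of culture composition in the higher genes was not tested.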

How the data were processed

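Total RNA of 2 MEF cultures was amplified to biotinylated cRNA and hybridized to 1 Affymetrix array each. Per the submitters' processing notes, MAS5 gave the deposited intensity values, 1 linear signal for each of 45037 probe sets and array; its version was not given in the sources used here, nor is the target of its scaling, and no detection calls were used. The methods name a porcine array, while the labels give mouse RNA, so the platform annotation given for these probe sets (mouse) was used. Of the probe sets 34945 carried 1 gene symbol, 932 several and 9160 were not listed, and only the first were named. Symbols were updated through the Entrez ID, and positions came from RefSeq genes of GRCm38.p6.

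The log2 ratio was that of the GapmeR AK156230 signal to the control signal, unscaled and without an offset. Where a gene had several probe sets, the one of highest mean log2 signal stood for it. The methods name SAM, which cannot be run on 1 array against 1, so genes were counted at 2-fold and no test was run. The number of arrays limits the precision. The 50 genes, the related lists and the markers were chosen with earlier results of these data known. Both signals were given for every gene past 2-fold and for the 3 brightest others of each group, and for some further genes chosen after their values were seen. From a related list up to 4 genes past 2-fold above the array median were named. Tables of promoters gave the 250 bases before each listed start site, which for some genes lay inside the annotated gene. The AP-1 letters were planned, while the TATA and Grainyhead letters and the shared run were searched after the values were seen. Alternatives were equal medians, quantile normalization, an offset (24.3, the percentile 25 of the signals), a minimum signal at the array median, a gene's mean log2 ratio over its probe sets, and the removal of _x_at and _s_at probe sets. The counting was tested on simulated data. Upstream sequences were aligned with Biopython 1.88 (match 1, mismatch -1, gap opening -2, gap extension -0.5). Python 3.11.15 was used with numpy 2.4.6, pandas 2.3.3 and matplotlib 3.10.9.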

Additional observations from a re-analysis of the deposited data

How the results depend on the processing

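The count of higher epidermal genes was 11 as deposited, 13 with equal array medians or quantile normalization, 11 with the minimum signal or the mean of all probe sets, and 9 with the offset or without _x_at and _s_at probe sets. The genes added at 13 were Lce1g and Sprr1b, both dim, which came to log2 ratios of 0.33 and 0.16 with the offset. Equal medians shifted every log2 ratio by 0.105. The count of lower genes was 1 as deposited and 0 with the offset, with the mean of all probe sets and without _x_at and _s_at probe sets. Of the 12 genes past 2-fold, 12 stayed past it with equal medians, quantile normalization or the minimum signal, 11 with the mean of all probe sets (Cldn1 came to -0.80) and 9 with the offset, where Krt19 (0.94), Grhl3 (0.74) and Cldn1 (-0.90) came under it. Without _x_at and _s_at probe sets, Lce1h and Lce1i had no value, and 9 of the other 10 stayed past 2-fold. Cldn1, then read from a dim probe set at 20.17 and 20.3, came to 0.0093 (log2), near no change. The other remaining Cldn1 probe sets, both dim, gave -1.32 and -0.31. The median of the 48 genes was 0.15 as deposited and ran from 0.10 to 0.26. The minimum signal, which keeps 31 of the genes, moved the median of the cornified envelope group to 1.13 and that of the regulators and other genes to 0.60. It reads the brighter array of each gene, so Dsp, Dynap, Cldn4, Grhl3, Krt20, Lor, Evpl and Ocln passed only through the GapmeR AK156230 array. Cldn1 and Dsg2 passed only through the GapmeR Control array. All genes that it dropped lay within 2-fold, so these larger medians follow from the filter. All 12 genes past 2-fold met it already, so their count under it was fixed in advance. No paired analysis was possible because each condition had 1 array. Dim genes limit what can be read of the small proline-rich proteins, involucrin, p63 and the basal keratins, whose ratios rest on signals below the array median.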
